A study of Mus musculus with 6 samples.

Results

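A set of 10 genes of the NF-κB pathway were followed through hypoxia and reoxygenation of AML12 cells, a mouse hepatocyte line derived from mice that carried a human TGFα transgene. It held the 5 subunits Nfkb1, Nfkb2, Rela, Relb and Rel and 5 genes grouped here as inhibitors, Nfkbia, Nfkbie, Nfkbiz, Tnfaip3 and Bcl3. Of these, Nfkbiz and Bcl3 encode proteins that can also raise transcription. The genes were chosen by symbol, and all 10 had a row among the 25330 genes of the deposited tables. RNA-seq was performed on 3 control libraries (labelled Control) and 3 libraries of hypoxia-reoxygenation (labelled H6R2, called H/R here). All cells were of the same line and, apart from the transgene of its origin, wild type. Control cells were kept under normoxia (21% O2, 5% CO2) in medium with 10% fetal bovine serum and 40 ng/ml dexamethasone. H/R cells were placed in 1% O2 and 5% CO2 for 6 h and reoxygenated for 2 h, and their medium had been replaced with one free of serum and glucose. Whether that medium held dexamethasone is not given in the sources used here. The effects of oxygen, of serum and glucose and of dexamethasone cannot be told apart in this design. The study used the comparison to find genes whose expression changes in hepatocytes after H/R.

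NF-κB factors are dimers of 5 related subunits that share a DNA-binding domain. RelA, RelB and c-Rel carry an activation domain, whereas Nfkb1 and Nfkb2 encode precursors, p105 and p100, that are processed to p50 and p52. In resting cells the dimers are held in the cytoplasm by IκB proteins, and the IKK kinase complex releases them by marking IκB for degradation. Several NF-κB subunits and inhibitors are themselves NF-κB target genes, so that activation is followed by new synthesis of its own brakes. In the liver, NF-κB is known for its part in the inflammatory response and in the protection of hepatocytes from cell death.

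The promoter sequences are shown first, because genes that rose and genes that fell both held a match to the κB motif. RefSeq promoter windows of 300 bases on GRCm38.p6, from 250 bases before to 50 bases after the transcription start, were found for 7 of the 10 genes, namely Nfkb2, Rela, Rel, Nfkbia, Nfkbie, Tnfaip3 and Bcl3. Nfkb1, Relb and Nfkbiz were not matched to a window. The windows were searched on both strands for the κB consensus, a motif of 10 bases. In the sequences below, read 5′ to 3′ on the strand of the gene, capitals mark the bases covered by a κB match. Whole windows are given for Nfkbia and Tnfaip3, which rose after H/R, for Nfkbie, which fell, and for Rela, which rose and had no match.
Nfkbia (chr12:55492598-55492897, minus strand): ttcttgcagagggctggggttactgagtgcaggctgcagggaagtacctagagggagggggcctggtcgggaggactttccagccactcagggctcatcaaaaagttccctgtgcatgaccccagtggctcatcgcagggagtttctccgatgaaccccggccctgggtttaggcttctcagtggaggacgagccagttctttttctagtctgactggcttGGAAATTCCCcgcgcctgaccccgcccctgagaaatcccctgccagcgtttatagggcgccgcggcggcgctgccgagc
Tnfaip3 (chr10:19015361-19015660, minus strand): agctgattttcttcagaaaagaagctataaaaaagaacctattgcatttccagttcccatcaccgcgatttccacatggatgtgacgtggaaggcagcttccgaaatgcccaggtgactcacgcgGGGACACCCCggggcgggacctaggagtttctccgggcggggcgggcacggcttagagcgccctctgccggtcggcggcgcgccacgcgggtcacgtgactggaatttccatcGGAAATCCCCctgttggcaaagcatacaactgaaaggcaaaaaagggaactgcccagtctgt
Nfkbie (chr17:45555450-45555749, plus strand): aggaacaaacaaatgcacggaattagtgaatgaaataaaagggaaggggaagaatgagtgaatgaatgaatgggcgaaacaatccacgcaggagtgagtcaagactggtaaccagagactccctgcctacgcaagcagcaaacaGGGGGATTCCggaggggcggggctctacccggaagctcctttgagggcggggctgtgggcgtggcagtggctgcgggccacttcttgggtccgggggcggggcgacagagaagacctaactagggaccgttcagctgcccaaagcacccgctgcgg
Rela (chr19:5637291-5637590, plus strand): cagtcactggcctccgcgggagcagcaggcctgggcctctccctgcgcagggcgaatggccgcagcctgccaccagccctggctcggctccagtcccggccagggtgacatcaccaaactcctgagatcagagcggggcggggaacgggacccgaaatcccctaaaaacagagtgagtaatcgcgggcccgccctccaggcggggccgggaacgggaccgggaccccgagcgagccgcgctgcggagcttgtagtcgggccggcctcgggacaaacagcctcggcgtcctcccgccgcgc
For the other 3 genes, 60 bases around the matches are given. Nfkb2 and Rel rose after H/R and Bcl3 fell.
Nfkb2 (chr19:46304687-46304746, plus strand): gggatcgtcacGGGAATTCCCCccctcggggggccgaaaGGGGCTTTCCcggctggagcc
Rel (chr11:23771027-23771086, minus strand): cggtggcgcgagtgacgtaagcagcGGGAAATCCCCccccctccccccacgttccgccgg
Bcl3 (chr7:19822719-19822778, minus strand): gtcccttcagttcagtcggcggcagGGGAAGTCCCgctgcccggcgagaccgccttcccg

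A κB match was present in 6 of the 7 genes, against 6.26% of the 9201 tested genes that had a window and 5.14% of all 27025 genes with a window. Several of these 7 genes are known NF-κB targets, so a high share follows in part from the choice of genes. Of the 5 genes with a window that rose, 4 held a match, and of the 2 that fell, 2 did. The match of Nfkbia began 29 bases before the start and read GGGAATTTCC on the opposite strand. That of Nfkbie began 106 bases before the start and read GGGGGATTCC on the strand of the gene. Bcl3 held its match just after the start, GGGACTTCCC on the opposite strand. In Nfkb2, 4 matches covered 2 stretches, and 3 of them lay on the same 11 bases, since GGGAATTCCC reads the same on both strands and overlaps GGGGAATTCC. In Rel, 3 overlapping matches likewise lay on 1 stretch that began 92 bases before the start. Tnfaip3 had 2 matches in the first of its 2 windows, at 125 and 12 bases before the start, and none in the second. The other 2 windows of Nfkb2, for later starts, held the match GGGACTTTCC on bases that both windows share, and the second held 1 more, GGGACATTCC. The sequence ACGTG, 1 form of the core of the hypoxia response element, was present in Tnfaip3 and Rel, or 2 of 7 genes, against 29.6% of tested genes. The form GCGTG was not searched. The AP-1 motif TGANTCA, which reads the same on both strands, was present in Nfkb2 (in a later window), Nfkbie and Tnfaip3, or 3 of 7 genes, against 6.21% of tested genes. A match describes the letters only, and binding was not measured.

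Libraries held between 20438746 and 21854790 counts. Scaling by edgeR's TMM method used factors from 1.02 to 1.06 for control libraries and from 0.958 to 0.975 for H/R libraries, and scaled counts below are counts brought to the mean effective library size. Of 12 hepatocyte markers, Krt8, Krt18, Hnf4a and Foxa2 had at least 1247 counts in every library, whereas Alb had at most 542 and Fgb and Serpina1a were nearly absent outside control replicate 1, which held 52 and 61 counts of them. Without that library the log2 fold changes were 0.66 for Nfkb1, 0.30 for Nfkb2, 0.44 for Rela, 0.42 for Relb and 0.38 for Rel. They were 0.36 for Nfkbia, 0.53 for Tnfaip3, -0.997 for Nfkbie, -0.71 for Nfkbiz and -0.64 for Bcl3. Of 10 macrophage markers, Ptprc, Adgre1, Clec4f, Itgam, C1qa and C1qc had at most 3 counts in every library and C1qb was not in the tables. The summed macrophage list was 66 to 81 counts in control and 176 to 220 in H/R libraries, through Cd68 (16 to 22 against 113 to 137) and Csf1r (42 to 57 against 60 to 79). The lymphocyte markers, 4 of 8 of them in the tables, summed to at most 3 counts in any library, the 7 endothelial markers to at most 15 and the 7 stellate cell markers to at most 27. The cholangiocyte markers, 5 of 6 of them in the tables, summed to 31986 to 36476 counts in control and 52574 to 56997 in H/R libraries, with Krt19, Krt7 and Sox9 higher and Spp1 lower in every H/R library and Cftr at 0 to 1 counts. The part of these markers in the results was not tested. In such bulk libraries a change in RNA per cell cannot be told apart from a change in the share of cells that express a gene.

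All 5 subunits rose after H/R, by between 1.23-fold (Nfkb2) and 1.59-fold (Nfkb1). The inhibitors were divided. Nfkbia, the main IκB, and Tnfaip3, which encodes the ubiquitin-editing enzyme A20, rose by 1.28-fold and 1.42-fold, whereas Nfkbie, Nfkbiz and Bcl3 fell to 51.8%, 61.8% and 63.7% of the control level. With edgeR's quasi-likelihood F test, adjusted by the Benjamini-Hochberg method over 14020 genes, all 10 genes passed an adjusted p of 0.05, 7 of them higher and 3 lower, while 62.8% of all tested genes passed it, 31.0% higher and 31.8% lower. The median log2 fold change was 0.43 over the subunits and -0.01 over all tested genes. Over the 5 genes grouped as inhibitors it was -0.65, which is the value of Bcl3 in a divided set. None of the 10 reached the study's second threshold, a fold change of 2, which 8.52% of tested genes passed along with the first. At a fold of 1.5, Nfkb1 was higher and Nfkbie, Nfkbiz and Bcl3 were lower, against 11.4% and 13.0% of tested genes (24.4% in either direction). Nfkb1 was under this fold, at log2 fold changes of 0.57 with library totals alone and of 0.50 and 0.56 with limma-trend on log2(RPKM + 1) and log2(RPKM + 0.1). In each of the 10 genes the 3 H/R libraries did not overlap the 3 control libraries, which was also seen for 65.9% of tested genes (32.5% higher and 33.5% lower). The exact two-sided permutation test then gives p = 0.1 for each gene, the smallest that 3 against 3 libraries allow. The labels do not say whether the 3 libraries of a group came from separate cultures. The edgeR p-values therefore weigh each difference only against the spread between these libraries, estimated in part across genes.

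**Figure D1:**
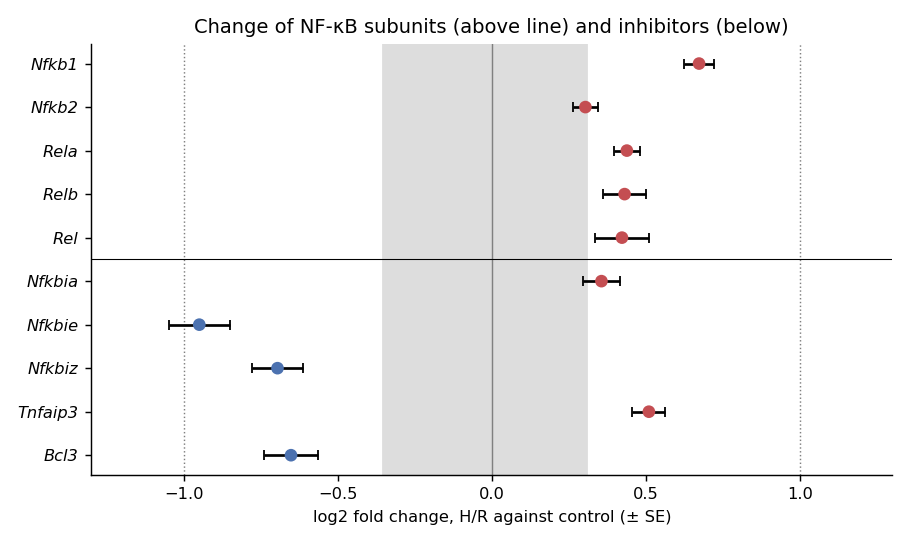
Log2 fold change of each gene (x axis, H/R against control, ± SE from edgeR's quasi-likelihood test) for the 5 subunits above the line and the 5 inhibitors below it; the grey band spans the quartiles of all 14020 tested genes and dotted lines mark a fold of 2. All 5 subunits, Nfkbia and Tnfaip3 lie right of 0 (red), Nfkbie, Nfkbiz and Bcl3 left of it (blue), and none reaches a dotted line at its estimate.

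Among the subunits, Nfkb1 moved most. This gene, which encodes p105 and its product p50 (chromosome 3, 135584655 to 135691547, minus strand, GRCm38), had scaled counts of 1621, 1690.2 and 1653 in control and 2465, 2750.1 and 2696 in H/R libraries. The lowest H/R library was well above the highest control. The mean rose from 1655 ± 34.6 to 2637 ± 151 (SD, n = 3 each), a log2 fold change of 0.67 (standard error, SE, 0.047; adjusted p = 1.64e-14). By absolute log2 fold change, 79.4% of all tested genes moved less.

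Rela encodes the p65 subunit, the usual activating partner of p50 (chromosome 19, 5637483 to 5648130, plus strand). Its scaled counts were 2441, 2389.5 and 2438 in control and 3255, 3296 and 3299 in H/R libraries. Replicates lay closer together than in any other of the 10 genes relative to their mean. The log2 fold change was 0.44 (SE 0.042, adjusted p = 3.79e-11).

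Nfkb2 encodes p100, which is both the precursor of p52 and an inhibitor of RelB dimers (chromosome 19, 46304737 to 46312090, plus strand). It had 5124, 4959.5 and 5309 scaled counts in control and 6135, 6474 and 6392 in H/R libraries. The groups did not overlap, but the change was the smallest of the 10 genes, with a log2 fold change of 0.30 (SE 0.042, adjusted p = 9.05e-08). Of all tested genes, 46.6% moved less.

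Relb encodes the partner of p52 in the non-canonical pathway (chromosome 7, 19606217 to 19629438, minus strand). It had 454.5, 431 and 501 scaled counts in control and 599.9, 607 and 662 in H/R libraries, a log2 fold change of 0.43 (SE 0.069, adjusted p = 1.86e-06). Rel, which encodes c-Rel and is known mainly from lymphoid cells (chromosome 11, 23736847 to 23770970, minus strand), had 235, 260.4 and 249 in control and 316, 321 and 359 in H/R libraries. Its log2 fold change was 0.42 (SE 0.088, adjusted p = 9.39e-05). The gaps between the groups were narrower for Relb and Rel than for Nfkb1 or Rela, in scaled counts, and their standard errors were larger. Both genes had fewer counts, and their log2 fold changes were close to the 0.44 of Rela.

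**Figure D2:**
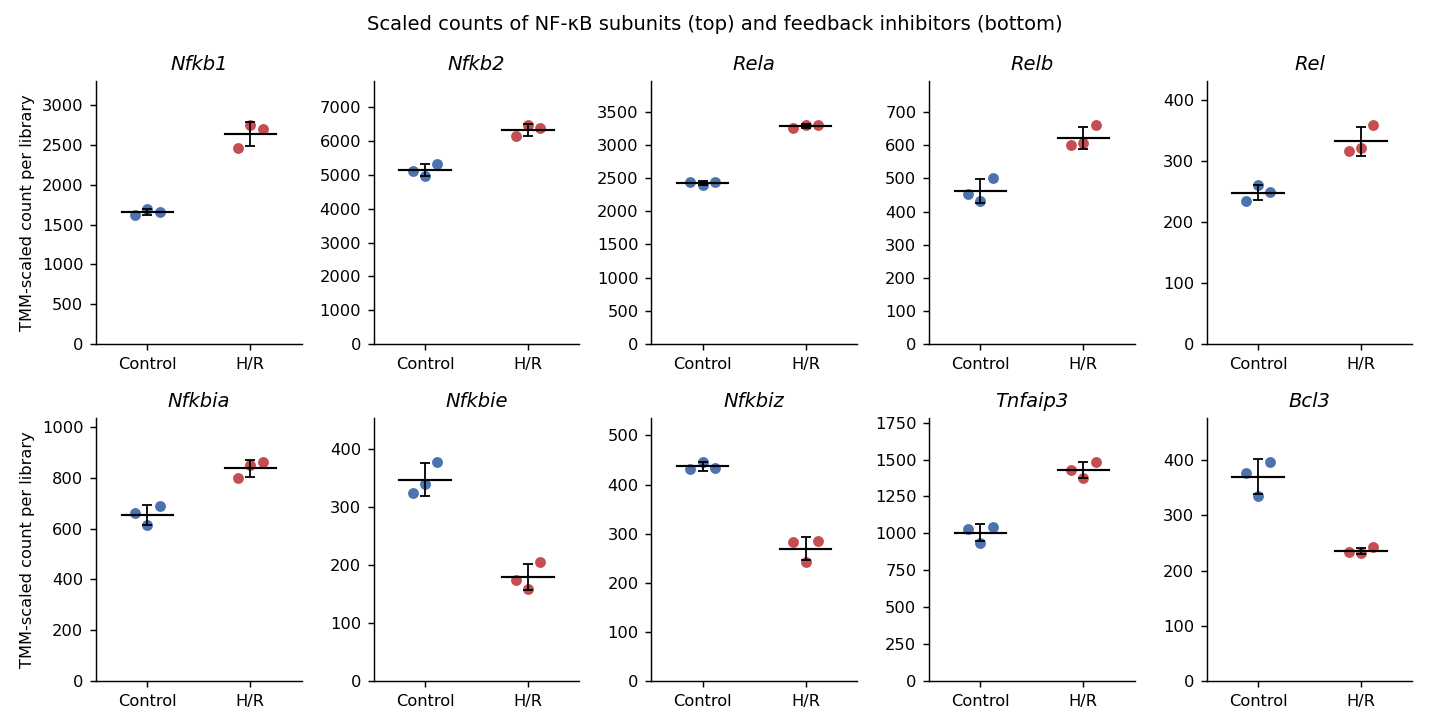
TMM-scaled count (y axis, from 0) in each of the 3 control (blue) and 3 H/R (red) libraries for the 10 genes, with the mean (bar) and SD. The H/R points lie above the control points for the 5 subunits, Nfkbia and Tnfaip3 and below them for Nfkbie, Nfkbiz and Bcl3, with no overlap in any panel.

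The genes grouped here as inhibitors encode proteins that act on NF-κB at different points. Nfkbia encodes IκBα, which retains p65-p50 dimers in the cytoplasm and is resynthesised after their activation (chromosome 12, 55489411 to 55492647, minus strand). It had 661, 613 and 687 scaled counts in control and 797, 849 and 863 in H/R libraries. All H/R libraries were above all controls, with a log2 fold change of 0.36 (SE 0.061, adjusted p = 4.52e-06).

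Tnfaip3 encodes A20, which removes and replaces ubiquitin chains on signalling proteins upstream of IKK (chromosome 10, 19000910 to 19015657, minus strand). It had 1032, 937 and 1043 scaled counts in control and 1428, 1375 and 1486 in H/R libraries, a log2 fold change of 0.51 (SE 0.053, adjusted p = 3.26e-10). This was the larger of the increases among the inhibitors.

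Nfkbie encodes IκBε, a cytoplasmic inhibitor of the same class as IκBα (chromosome 17, 45555716 to 45563169, plus strand). Its scaled counts were 323, 338 and 378 in control and 174, 159 and 204 in H/R libraries. The highest H/R library was far below the lowest control. The mean fell from 346 ± 28.1 to 179 ± 23.0 (SD, n = 3 each), a log2 fold change of -0.95 (SE 0.099, adjusted p = 2.94e-10). It was the largest change of the 10 genes in either direction, and 90.2% of all tested genes moved less.

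Nfkbiz and Bcl3 encode atypical IκB proteins, IκBζ and BCL-3, which act in the nucleus and can raise or lower transcription of selected target genes together with p50 or p52 homodimers. Nfkbiz (chromosome 16, 55811375 to 55838899, minus strand) had 431, 447 and 433 scaled counts in control and 282, 242 and 285 in H/R libraries. Its log2 fold change was -0.70 (SE 0.083, adjusted p = 5.16e-09). Bcl3 (chromosome 7, 19808462 to 19822770, minus strand) had 377, 336 and 397 in control and 233, 232 and 242 in H/R libraries, a log2 fold change of -0.65 (SE 0.088, adjusted p = 7.24e-08). Both genes were lower in every H/R library than in every control. Of the exon bases of Bcl3, 161 (6.51%) are shared with the antisense gene Gm16175, which had 3 to 15 counts in any library, and 4 exon bases of Nfkb2 are shared with Psd on the other strand. The other 8 genes share no exon base with another gene of the tables.

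Per length, the highest and the lowest of the 10 genes differed in level by more than any of the 10 changed. Levels are given as RPKM (reads scaled by gene length and by depth), which the authors computed with library totals. The length counts all annotated exon bases of a gene. It was 12061 for Nfkb1 and 7466 for Rel, against 3289 for Nfkb2 and 2475 for Bcl3. Levels and their order therefore depend on the annotation. In scaled counts, Nfkb1 had a control mean of 1655, against 346 for Nfkbie and 370 for Bcl3. In control cells Nfkb2 was highest at 76.4 ± 3.58 RPKM (SD, n = 3), followed by Rela at 43.7 ± 0.942 and Nfkbia at 20.3 ± 1.39. Their ranges did not overlap. Bcl3, Nfkbie, Tnfaip3 and Nfkb1 followed with means from 7.32 down to 6.72 RPKM, and each overlapped its neighbour in this order. Relb (5.83 ± 0.529), Nfkbiz (4.26 ± 0.101) and Rel (1.63 ± 0.0946) were the lowest and did not overlap each other.

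In H/R cells the highest and lowest places were the same and the middle of the order changed. Nfkb2 had 87.7 ± 2.89 RPKM, Rela 55.1 ± 0.846 and Nfkbia 24.2 ± 1.19 (SD, n = 3 each). Nfkb1 was now next at 9.96 ± 0.619 and overlapped Tnfaip3 at 9.01 ± 0.421. Relb (7.30 ± 0.465), Bcl3 (4.33 ± 0.142), Nfkbie (3.37 ± 0.462) and Nfkbiz (2.45 ± 0.230) came below without overlap, and Nfkbiz overlapped Rel at 2.03 ± 0.162. In RPKM, Bcl3 and Nfkbie, which had been level with Nfkb1 or above it in control cells, were thus below Relb.

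**Figure D3:**
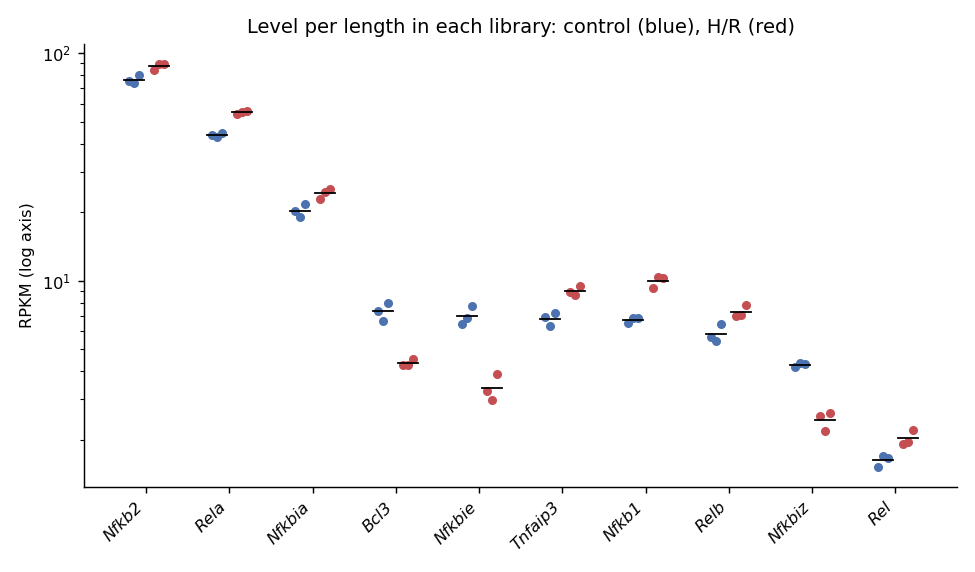
RPKM of each gene (log axis) in the control (blue) and H/R (red) libraries, with bars at the means, ordered by the control level. Nfkb2, Rela and Nfkbia stand above the others in both groups, and Bcl3, Nfkbie and Nfkbiz drop while Tnfaip3, Nfkb1, Relb and Rel rise.

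Ratios of 2 genes within a library do not depend on how libraries are scaled, but their size depends on the gene lengths used. The RPKM of Nfkb1 was 0.0863, 0.0929 and 0.0849 times that of Nfkb2 in control and 0.110, 0.116 and 0.115 times in H/R libraries. The ratio of the precursor genes therefore moved toward Nfkb1 without overlap between groups. The RPKM of Nfkbie relative to Nfkbia was 0.318, 0.36 and 0.358 in control and 0.143, 0.122 and 0.154 in H/R libraries. Of the summed RPKM of the 5 inhibitors, Nfkbia made up 44.0% to 44.9% in control and 54.6% to 57.5% in H/R libraries. The ratios of Nfkbiz to Nfkbia (0.211 ± 0.0164 to 0.101 ± 0.0111) and of Bcl3 to Nfkb2 (0.0957 ± 0.00509 to 0.0494 ± 0.00158; SD over 3 libraries) were also lower in every H/R library. For these 4 of the 6 ratios computed, the exact two-sided permutation test gave its smallest p of 0.1 for 3 against 3 libraries (0.15 adjusted over the 6).

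The ratio of Nfkbia to Rela overlapped between the groups. It was 0.464 ± 0.0220 in control and 0.439 ± 0.0151 in H/R libraries (SD, n = 3 each, exact two-sided permutation test, p = 0.3). For Relb relative to Rela the ratio was 0.133 ± 0.00915 and 0.133 ± 0.00657 (SD, n = 3 each, exact two-sided permutation test, p = 0.8). The ratio of Relb to Rela overlapped as well, and with 3 libraries a group a p of this size does not show that either ratio was equal. The summed RPKM of the 5 subunits was 130.4 to 140.1 in control and 157 to 166 in H/R libraries. That of the 5 inhibitors was 43.0 to 49.0 and 41.9 to 45.6, which overlapped. Both sums use library totals, and the second leaves out other IκB genes such as Nfkbib. That gene had 19.7 to 20.2 RPKM in control and 27.4 to 27.9 in H/R libraries. It shares 16.4% of its exon bases with other genes. The other inhibitors, described below, went in both directions.

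**Figure D4:**
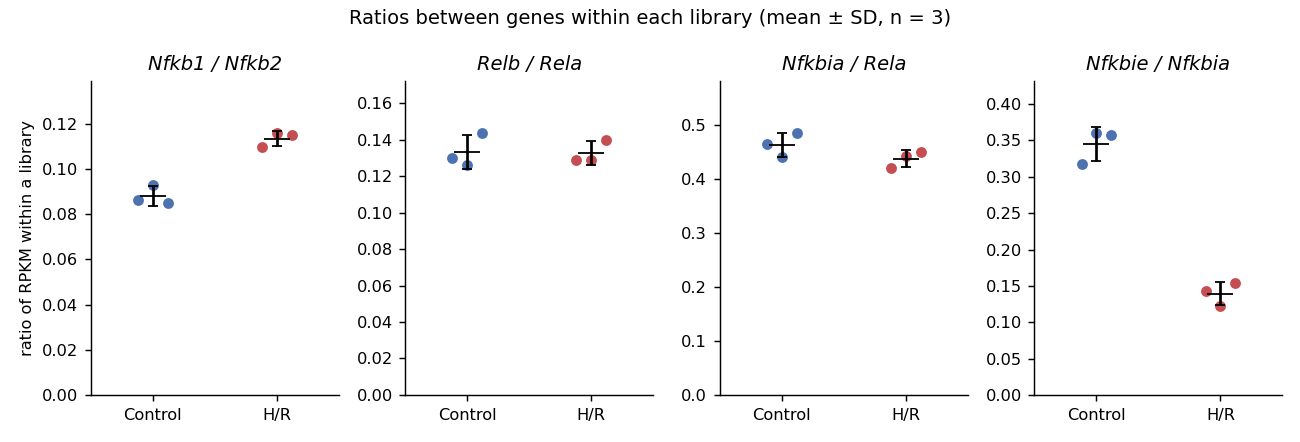
Ratio of RPKM (y axis, from 0) between 2 genes within each control (blue) and H/R (red) library, with mean and SD (n = 3). Nfkb1 / Nfkb2 is higher and Nfkbie / Nfkbia lower in all H/R libraries, whereas Relb / Rela and Nfkbia / Rela overlap between the groups.

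The other genes of the pathway were described from lists of inhibitors, kinases and adaptors, ligands, receptors and target genes. Among 16 tested genes of 17 other inhibitors, 8 rose, 2 fell and 6 did not pass the test (median log2 fold change 0.22), against 31.0% higher and 31.8% lower of all tested genes. Tnip1, which encodes an A20-binding protein, had a log2 fold change of 0.71 (SE 0.043), Rnf11, a subunit of the A20 complex, 0.88 (SE 0.064), and Pdlim2, which targets nuclear p65 for degradation, 1.07 (SE 0.084). Otulin, which encodes a deubiquitinase for linear chains, had 1827, 1685 and 1148 counts in control and 381, 385 and 702 in H/R libraries. Its log2 fold change was -1.54 (adjusted p = 0.0147), and its adjusted p was 0.101 with the replicate number as a block, 0.0503 without control replicate 2, 0.0546 without H/R replicate 1 and 0.0566 without H/R replicate 2. Nkrf, which encodes a repressor of NF-κB-driven genes, fell by 0.18 on the log2 scale (adjusted p = 0.0207), with groups that overlapped, and with adjusted p from 0.0603 to 0.0956 without control replicate 1, control replicate 2, H/R replicate 2 or H/R replicate 3.

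Of 28 genes of the IKK complex and its adaptors, all tested, 13 rose, 7 fell and 8 did not pass, and the median log2 fold change was 0.06, where 62.8% of all tested genes passed, 31.0% higher and 31.8% lower. The adaptor gene Traf1 had a log2 fold change of 1.74 (27, 37 and 35 counts in control and 104, 97 and 101 in H/R libraries). Birc3, which encodes the ubiquitin ligase cIAP2, had one of 0.80 and Tab3, an adaptor of the kinase TAK1, one of 0.68. The genes with the largest decreases were Irak4, a kinase of interleukin-1 and Toll-like receptor signalling, at -0.88, Ikbkg, which encodes the regulatory IKK subunit NEMO, at -0.63, and Ikbke, an IKK-related kinase, at -0.48. Their counts are less certain, since they share 7.87%, 5.15% and 2.48% of exon bases with genes on the opposite strand, of which Twf1 (beside Irak4) and G6pdx (beside Ikbkg) were also lower in every H/R library.

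Of the 10 ligand genes, 1 could be tested. Tnf, Il1b, Lta, Tnfsf13b and Tnfsf14 had at most 3 counts in every library, and Il1a had 0 to 5. Tnfsf12, the gene of the ligand TWEAK, fell by 0.19 on the log2 scale (adjusted p = 0.0236) but shares 48.3% of its exon bases with Tnfsfm13, and its adjusted p was 0.0871 without control replicate 2 and 0.140 without H/R replicate 2. Among 7 tested genes of 12 receptors, 4 rose, 2 fell and 1 did not pass (median log2 fold change 0.59), against the same 31.0% and 31.8% of all tested genes. The TWEAK receptor gene Tnfrsf12a had a log2 fold change of 0.93 (SE 0.048) and Tnfrsf1b, a TNF receptor, one of 0.59 (SE 0.118). Tlr4, the endotoxin receptor, had one of 0.63 (67, 46 and 50 counts in control and 86, 50 and 94 in H/R libraries, adjusted p = 0.00726, and 0.0598 without H/R replicate 3). The gene of the lymphotoxin receptor, Ltbr, had a log2 fold change of -0.43, and Tlr3, a sensor of double-stranded RNA, one of -1.15 with 9 to 46 counts.

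The target genes spread widely, and no test compared them with the subunits or inhibitors. Of 29 on the list 20 could be tested, and 18 rose, 1 fell and 1 did not pass, with a median log2 fold change of 1.15, while 31.0% of all tested genes passed higher and 31.8% lower. A fold of 2 was passed by 12 that rose and 1 that fell, against 4.25% and 4.27% of tested genes. The largest increases were of chemokine genes with few counts in control cells. Cxcl2, which attracts neutrophils, had 6, 2 and 5 counts in control and 60, 73 and 73 in H/R libraries (log2 fold change 4.08, SE 0.312). Ccl20, which attracts CCR6-bearing lymphocytes and dendritic cells, had 9, 4 and 10 against 85, 95 and 99 (3.72, SE 0.257), and Cxcl10, which attracts T cells, had 6, 6 and 9 against 69, 76 and 77 (3.52, SE 0.269). Cxcl10 shares 5.91% of its exon bases with Art3, which had 1 to 3 counts in any library. Cxcl5, another neutrophil chemokine, fell instead, from 905 to 1052 counts in control to 150 to 167 in H/R libraries (log2 fold change -2.49, SE 0.076). Cd68 and Csf1r counts were also higher in every H/R library, while Ptprc, Adgre1, Clec4f and Itgam had at most 3 counts in each. Of the exon bases of Csf1r, 871 are shared with Hmgxb3 on the opposite strand, which had 673 to 778 counts in control and 934 to 1182 in H/R libraries. Many of the target genes also respond to other factors, and the list was written with earlier results of these libraries known.

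**Figure D5:**
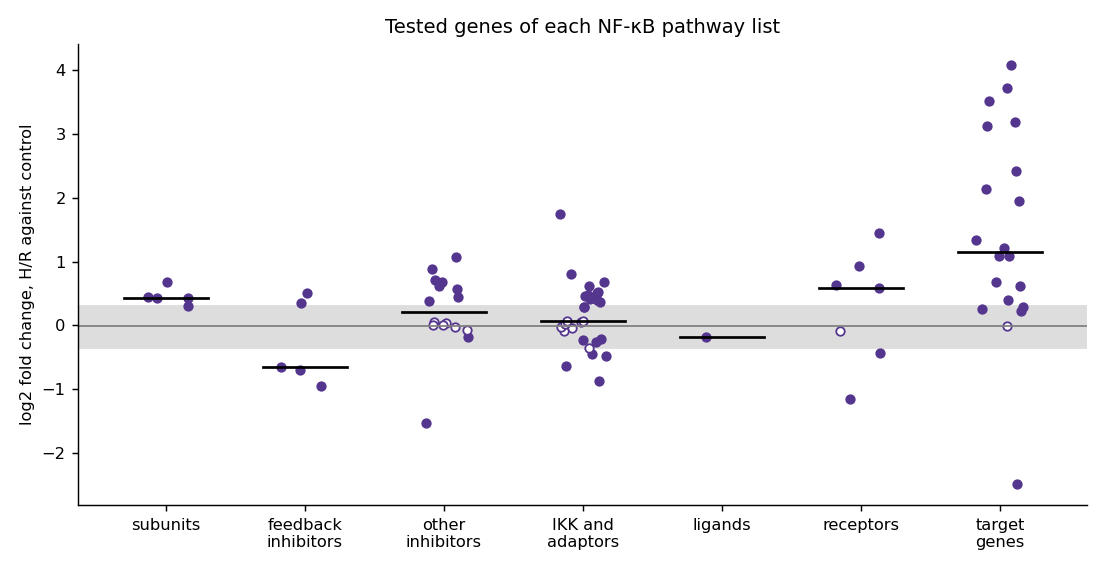
Log2 fold change (y axis, H/R against control) of the tested genes of each list, filled where the adjusted p was under 0.05 and open otherwise, with a bar at each list's median and a grey band over the quartiles of all 14020 tested genes. The 5 subunits lie close together above 0, the 5 feedback inhibitors split to either side, and the target genes spread from -2.49 to 4.08.

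The genes with the profile most like Nfkb1, the member with the lowest p, were sought by Pearson correlation of log2 CPM (counts scaled to library size) over the 6 libraries among 12865 other genes. Among the closest were Usp53 and Plk3, each with r of 0.999 and with log2 fold changes of 0.91 and 1.31. As 284 genes had r above 0.99, such likeness mostly restates the difference between the 2 groups.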

How the data were processed

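Total RNA was extracted with Trizol and made into stranded, paired-end mRNA libraries, 1 per sample. Whether strand was used in counting is not given in the sources used here. Per the submitters' processing notes, Trimmomatic 0.36, featureCounts of Subread 1.5.1 and edgeR 3.12.1 were used, with reads aligned to GRCm38. The deposited counts are raw, whole-number gene counts. RPKM, also deposited, follow from count, gene length and library total (largest relative error 1.13e-06 on recomputation). Genes without a count in any library were not listed, and 24 rows whose symbol had become a date were kept in the tests.

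Genes were tested on counts with edgeR 4.0.16 in R 4.3.3 (filterByExpr, TMM, robust dispersions, glmQLFit and glmQLFTest) and Benjamini-Hochberg adjustment over 14020 genes. Standard errors were derived from the F statistic. Alternatives used DESeq2 1.42.0, limma 3.58.1 and other scalings, filters and subsets of libraries. Exact permutation tests used scipy 1.17.1. Members and lists were chosen with earlier results of these data known. All 10 members are named, with at most 3 genes per direction of every other list (adjusted p under 0.05, mean scaled count of at least 20, largest change). Nfkbib was added after its values had been seen. Some genes are not reported here. Promoters are from RefSeq, GRCm38.p6.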

Additional observations from a re-analysis of the deposited data

How the results depend on the processing

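All 10 genes kept their direction and an adjusted p under 0.05 in each of the 15 alternatives run for them, which included every omission of 1 library. The number past a fold of 2 was 0 in each direction. For lower genes it was 1 (Nfkbie) with upper quartile scaling, with library totals alone and with limma-trend on log2(RPKM + 0.1), and lay between 0 and 1 when libraries were omitted singly (1 without H/R replicate 3). At a fold of 1.5 in place of 2 it was 1 higher (Nfkb1) and 3 lower, and Nfkb1 was under that fold with library totals alone and in both limma-trend fits. Library totals in place of TMM shifted the median over tested genes, on the log2 scale, from -0.01 to -0.12 and the share of higher among passing genes from 49.4% to 37.9%, with 3346 higher and 5478 lower. Upper quartile scaling gave 41.6% and limma-trend 37.4%. The number of tested genes past both thresholds was 406 with limma-trend on log2(RPKM + 1), against 1195, since that pseudocount shrinks low genes. With TMM library sizes in RPKM, 6 of the mean levels moved by at least their SD. Rela went from 43.7 to 42.2 in control and from 55.1 to 57.1 in H/R cells. RPKM from library totals thus give smaller rises than the TMM-based fold changes.

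Small counts on the lists moved. Of the other inhibitors 2 were lower, 1 with DESeq2 and 1 with the replicate block, and 0 to 2 with 1 library left out. The 1 lower ligand gene, Tnfsf12, became 0 with DESeq2 and 0 to 1 with 1 library left out. The 2 lower receptors became 1 under a minimum of 10 counts per library, which removed Tlr3. Tlr4 had an adjusted p of 0.119 and 0.129 on log2(RPKM + 1) and log2(RPKM + 0.1). The causes of the other changes were not tested. No pairing of libraries by replicate number was seen (correlations of deviations -0.08, -0.01 and 0.03), which does not show that they were unpaired. The replicate block gave 8787 passing genes against 8806 and, apart from Otulin, changed no call named here. The ligand genes that were listed were mostly at the floor of 3 counts. Whether depth or a lack of expression lies behind this was not tested.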

Other observations

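Some listed target genes were removed by the filter on low counts although their H/R libraries held more counts than their controls. They were picked out after their values had been seen. Csf2, the gene of the growth factor GM-CSF, had 3, 1 and 1 counts in control and 9, 10 and 13 in H/R libraries. Nos2, which encodes inducible nitric oxide synthase, had 2, 1 and 0 against 10, 12 and 6. Il6, which NF-κB is known to drive in many cells, had at most 2 counts in any library.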
